A study of Mus musculus with 6 samples.

Results

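The 10 genes described here, Ddit4, Depp1, Txnip, Tsc22d3, Dusp1, Sgk1, Klf9, Fkbp5, Zbtb16 and Nr3c1, are transcripts induced by glucocorticoids, by FOXO transcription factors or by both, together with the glucocorticoid receptor itself. They were taken by symbol from the 55450 genes of a count table of virgin mouse mammary glands, and all 10 were found and passed the filter on low counts. The libraries came from whole glands of virgin female FVB mice, 3 wild type (WT) and 3 Hpn-/-, the latter carrying a CRISPR/Cas9 disruption of hepsin, a membrane serine protease of epithelial cells. WT replicates 1, 2 and 3 were 2, 6 and 5 weeks old, and Hpn-/- replicates 1, 2 and 3 were 6, 6 and 5 weeks old. The labels name no treatment for either group, and they do not state the site of the disruption within Hpn, the time of day or the stage of the estrous cycle.

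Glucocorticoids bind the receptor encoded by Nr3c1, which is held ready by chaperones, moves to the nucleus and activates genes through paired hexamer sites called glucocorticoid response elements. FOXO factors are kept out of the nucleus by insulin and AKT signalling and act on their targets when that signal is low, as in fasting. Several genes answer both inputs, and in the mammary gland glucocorticoids act with prolactin and insulin in epithelial differentiation, while fat, which fills most of the virgin gland, responds strongly to both.

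The deposited counts summed to between 10971661 and 18807615 per library, of which 55.4% to 62.8% fell on a small set of loci derived from ribosomal RNA. Hpn had 4 to 12 counts in the WT and 3 to 5 in the Hpn-/- libraries, so it checks the genotype labels only weakly. Summed levels of 8 adipocyte markers were 1463 to 1827 CPM (counts scaled to library size, with TMM factors) over all libraries, those of 8 mammary epithelial markers 30.8 to 48.0, and those of 10 skeletal muscle markers 50.2 to 678 in WT and 14.5 to 1036 in Hpn-/- glands. The 10 lymphocyte markers summed to 54.4 to 70.2 CPM in WT and 70.3 to 94.99 CPM in Hpn-/- glands. In bulk tissue a smaller number of cells of a type cannot be told apart from less RNA per cell.

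The genes were selected on their counts in these same libraries, with the difference between Hpn-/- and WT known. Their levels and fold changes in that contrast are therefore descriptions without a test. Each log2 fold change below is that of Hpn-/- over WT from an edgeR quasi-likelihood fit over 12520 genes, with its standard error (SE).

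The sequences before the start sites are shown for 6 of the genes, because the known inputs of these genes act through DNA motifs and only some of the genes carry a match close to the start. Each line gives the 250 bases before an annotated RefSeq start (GRCm38.p6, C57BL/6J reference, not FVB), 5′ to 3′ on the gene's strand. Capitals mark matches, on either strand, to the full glucocorticoid response element (AGAACA, any 3 bases, TGTTCT), the FOXO core GTAAACA, its variant GTAAATA, the E box CACGTG or the cyclic AMP element TGACGTCA.
Sgk1, chr10:21993640-21993889, plus strand: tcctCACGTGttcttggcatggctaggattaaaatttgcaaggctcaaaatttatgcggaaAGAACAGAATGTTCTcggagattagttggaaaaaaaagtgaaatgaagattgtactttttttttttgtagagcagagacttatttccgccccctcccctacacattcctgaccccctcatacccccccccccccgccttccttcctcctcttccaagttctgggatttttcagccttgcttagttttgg
Txnip, chr3:96557707-96557956, plus strand: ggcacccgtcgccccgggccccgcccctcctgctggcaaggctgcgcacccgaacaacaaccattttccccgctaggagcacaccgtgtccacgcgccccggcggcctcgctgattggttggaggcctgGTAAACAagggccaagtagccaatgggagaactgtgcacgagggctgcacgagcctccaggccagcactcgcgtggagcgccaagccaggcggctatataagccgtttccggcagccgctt
Klf9, chr19:23140976-23141225, plus strand: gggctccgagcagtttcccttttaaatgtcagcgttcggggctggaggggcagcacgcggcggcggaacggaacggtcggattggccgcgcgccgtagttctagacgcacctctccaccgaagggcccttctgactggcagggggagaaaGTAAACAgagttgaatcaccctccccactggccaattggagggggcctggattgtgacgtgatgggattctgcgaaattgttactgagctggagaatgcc
Depp1, chr6:116650434-116650683, plus strand: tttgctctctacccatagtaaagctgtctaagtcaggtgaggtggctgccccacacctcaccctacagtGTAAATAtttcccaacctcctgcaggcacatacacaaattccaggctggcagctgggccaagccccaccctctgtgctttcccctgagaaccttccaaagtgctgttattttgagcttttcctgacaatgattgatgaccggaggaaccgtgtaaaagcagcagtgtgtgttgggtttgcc
Dusp1, chr17:26508473-26508722, minus strand: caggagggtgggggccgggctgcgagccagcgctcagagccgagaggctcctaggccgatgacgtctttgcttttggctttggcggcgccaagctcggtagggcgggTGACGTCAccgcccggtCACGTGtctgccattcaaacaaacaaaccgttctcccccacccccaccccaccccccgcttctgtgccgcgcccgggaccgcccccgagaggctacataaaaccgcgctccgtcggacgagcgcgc
Ddit4, chr10:59951771-59952020, minus strand: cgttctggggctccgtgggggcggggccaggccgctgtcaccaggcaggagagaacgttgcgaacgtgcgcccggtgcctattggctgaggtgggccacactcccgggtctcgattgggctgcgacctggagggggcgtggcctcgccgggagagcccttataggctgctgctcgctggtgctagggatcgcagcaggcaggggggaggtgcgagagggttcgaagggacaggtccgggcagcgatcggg

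Promoter windows were at hand for 8 of the genes (15 windows, since Sgk1 has 6 annotated starts and Tsc22d3 has 3). The full glucocorticoid response element occurred in 3 of all 32851 windows of this length (0.00913%), and 1 of these 3 is the Sgk1 window shown, 189 to 175 bases before that start. The hexamer AGAACA, which the full element contains, was in windows of Tsc22d3 and Sgk1 and in 16.1% of all windows. The FOXO core was in the windows of Txnip, 121 to 115 bases before the start, and Klf9, 100 to 94 bases before it, and in 3.17% of all windows. Depp1 had the FOXO variant 181 to 175 bases before its start, a motif found in 2.73% of all windows. Dusp1 had a full cyclic AMP element 143 to 136 bases before its start (1.55% of all windows) and an E box. E boxes were also in windows of Fkbp5 and Sgk1, and in 6.02% of all windows. The shorter cyclic AMP motif TGACG, which the full element contains, was in windows of Tsc22d3, Dusp1, Klf9 and Sgk1 and in 17.8% of all windows. The Ddit4 window shown holds none of the motifs searched, which says only that these letters are absent from these 250 bases.

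Per kilobase of annotated exon, Txnip was by far the most abundant of the 10 genes, at 46.1 CPM per kilobase in WT and 68.8 in Hpn-/- glands. Nr3c1 (4.96 in WT) and Klf9 (4.47) followed, then Zbtb16 (3.59), Depp1 (3.40), Ddit4 (2.74), Tsc22d3 (2.18), Sgk1 (1.90), Dusp1 (1.57) and Fkbp5 (0.867), which had the lowest level. In Hpn-/- glands Depp1 (8.04 CPM per kilobase) and Ddit4 (7.10) stood next after Txnip and ahead of Nr3c1 (4.90), while Fkbp5 (0.913) remained the lowest.

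The 10 genes fell into those whose Hpn-/- libraries all lay above the WT libraries and those whose groups overlapped. The groups did not overlap for 6 of 10 genes, all higher in Hpn-/- glands, against a background of 5.94% of all tested genes on the higher side and 5.04% on the lower side. The 6 were Ddit4, Depp1, Dusp1, Tsc22d3, Sgk1 and Txnip, and the same 6 had an unadjusted p under 0.05 in edgeR's test (background 3.98% on the higher side and 2.9% on the lower). After adjustment over all 12520 genes edgeR called 0 of the 10 (background 0.016% higher), limma-voom called 0 (background 0% higher). DESeq2, which was run on 25242 genes and adjusted over its own set, called 5, all but Sgk1 of these 6 (background 0.0317% higher). The background at an unadjusted p under 0.05 was 1.13% higher and 0.852% lower with DESeq2, and 3.48% higher and 3.05% lower with limma-voom. Because the genes were picked for this contrast, nothing is read from these counts. The median log2 fold change of the 10 genes was 0.60, beside 0.00 (0.00466) over all tested genes.

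**Figure D1:**
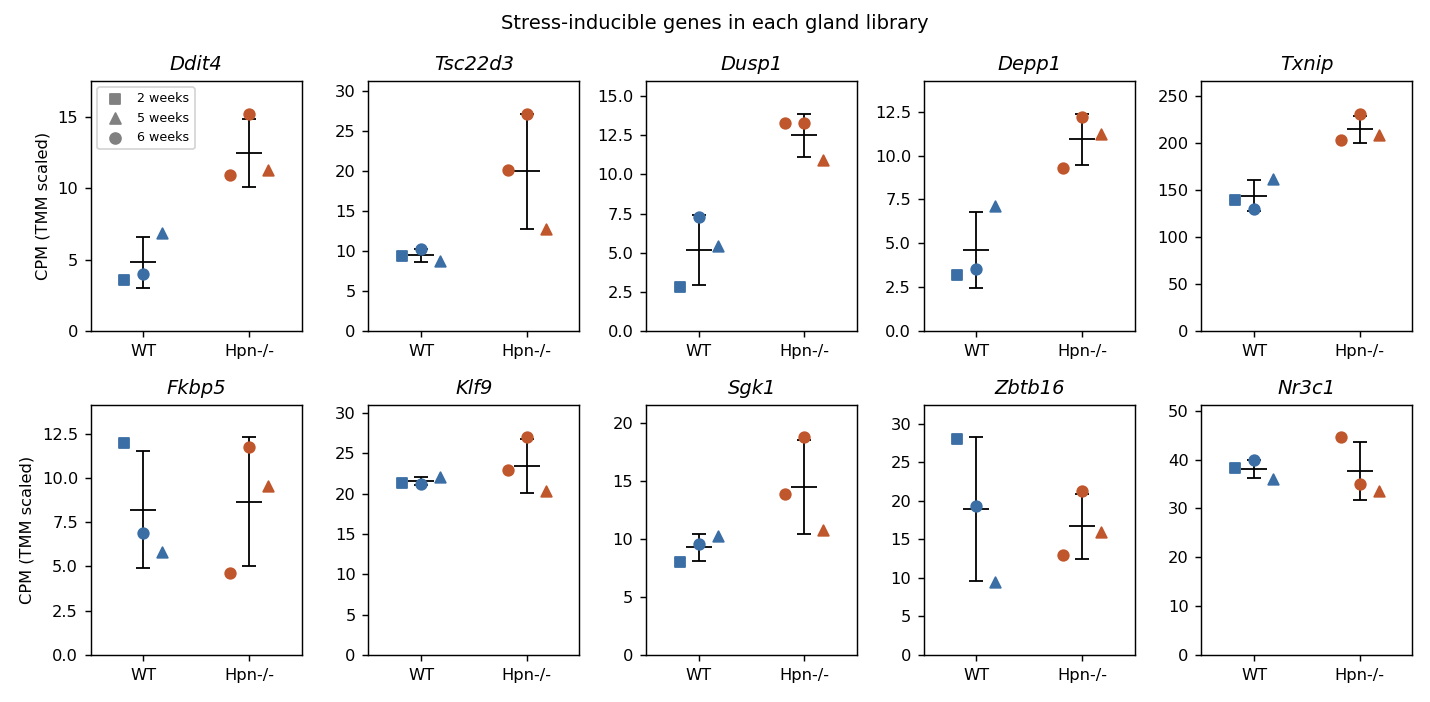
Level of each gene in CPM (vertical axes start at 0, TMM scaled) in the 3 WT and 3 Hpn-/- libraries. Points are libraries, marker shape gives the age, and bars give mean and SD. In Ddit4, Tsc22d3, Dusp1, Depp1, Txnip and Sgk1 every Hpn-/- library lies above every WT library, whereas Fkbp5, Klf9, Zbtb16 and Nr3c1 overlap.

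Ddit4 (ENSMUSG00000020108.4, chromosome 10, 59949669 to 59951834, minus strand, GRCm38) encodes REDD1, an inhibitor of mTORC1 induced by glucocorticoids, FOXO factors, hypoxia and DNA damage. It was at 3.56, 4.01 and 6.88 CPM in WT replicates 1, 2 and 3 (50, 42 and 82 counts) and at 10.9, 15.2 and 11.2 CPM in Hpn-/- replicates 1, 2 and 3 (165, 166 and 193 counts). The lowest Hpn-/- library was above the highest WT library, which was the 5 week one. The fold change was 2.57, a log2 fold change of 1.36 (SE 0.228, n = 3 each).

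Depp1 (ENSMUSG00000048489.12, chromosome 6, 116650609 to 116652794), a FOXO-induced gene whose product has been linked to autophagy, had nearly the same profile at 3.20, 3.54 and 7.13 CPM in WT and 9.32, 12.2 and 11.2 CPM in Hpn-/- replicates 1 to 3. Its highest WT library was again the 5 week one, and the groups did not overlap. The log2 fold change was 1.24 (SE 0.263, n = 3 each).

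Dusp1 (ENSMUSG00000024190.7, chromosome 17, 26505590 to 26562128, minus strand) encodes a phosphatase that switches off stress-activated MAP kinases and is a classical anti-inflammatory target of the glucocorticoid receptor. Its levels were 2.85, 7.26 and 5.45 CPM in WT and 13.3, 13.3 and 10.9 CPM in Hpn-/- replicates 1 to 3. The lowest value was that of the 2 week WT library, and no WT library reached the Hpn-/- range. The log2 fold change was 1.29 (SE 0.265, n = 3 each), and 0.97 without that 2 week library. Its annotated exons share 11 bases with those of Ergic1 on the opposite strand.

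Tsc22d3 (ENSMUSG00000031431.13, chromosome X, 140539528 to 140600659, minus strand) encodes GILZ, a leucine zipper protein that carries part of the anti-inflammatory action of glucocorticoids. The WT libraries were close together at 9.40, 10.2 and 8.72 CPM, while the Hpn-/- libraries spread over 20.2, 27.0 and 12.7 CPM. The 5 week Hpn-/- replicate 3 lay closest to WT. The log2 fold change was 1.07 (SE 0.243, n = 3 each), 0.80 without Hpn-/- replicate 2 and 1.31 without Hpn-/- replicate 3.

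Sgk1 (ENSMUSG00000019970.15, chromosome 10, 21882184 to 21999903) encodes a kinase related to AKT that acts on ion channels and on FOXO factors, and it is the gene with the full response element printed above. Its levels were 8.05, 9.56 and 10.3 CPM in WT and 13.9, 18.8 and 10.8 CPM in Hpn-/- replicates 1 to 3. Hpn-/- replicate 3 exceeded the highest WT library by little, so the separation of the groups rests on a small gap. The log2 fold change was 0.63 (SE 0.187, n = 3 each), with 0.41 without Hpn-/- replicate 2.

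Txnip (ENSMUSG00000038393.14, chromosome 3, 96557957 to 96561883), which encodes an arrestin-like protein that binds thioredoxin and restrains glucose uptake, was measured with the most counts, 1364 to 3589 per library. It was at 139, 130 and 162 CPM in WT and 204, 231 and 209 CPM in Hpn-/- replicates 1 to 3. Its difference was the smallest of the 6 in relative terms, at 1.49-fold (log2 fold change 0.58, SE 0.155, n = 3 each), but the gap between the groups was wide against the spread within them. Of its exons 606 bases overlap Gm15441 on the opposite strand, and the labels do not state whether the counting used strand. Gm15441, named after its values were seen, had 0 to 4 counts per library.

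The glucocorticoid receptor gene and 3 of its best known targets did not separate the genotypes. Nr3c1 (ENSMUSG00000024431.15, chromosome 18, 39410545 to 39519421, minus strand) was at 38.3, 39.9 and 36.1 CPM in WT and 44.5, 34.9 and 33.6 CPM in Hpn-/- replicates 1 to 3, a log2 fold change of -0.01 (SE 0.139). Klf9 (ENSMUSG00000033863.2, chromosome 19, 23141226 to 23168134), a zinc finger factor induced by glucocorticoids and thyroid hormone, was at 21.4, 21.1 and 22.1 against 22.9, 27.0 and 20.3 CPM, a log2 fold change of 0.12 (SE 0.130). The coefficients of variation of Nr3c1 and Klf9 were 5.00% and 2.26% among WT libraries, where counting error alone gives 4.68% and 6.23%. Among Hpn-/- libraries they were 15.9% and 14.2%, above the 4.41% and 5.52% that counting error gives.

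Fkbp5 (ENSMUSG00000024222.17, chromosome 17, 28399094 to 28517527, minus strand) encodes a co-chaperone that lowers the hormone affinity of the receptor in a feedback loop. It was at 12.0, 6.88 and 5.79 CPM in WT and 4.63, 11.7 and 9.56 CPM in Hpn-/- replicates 1 to 3, a log2 fold change of 0.04 (SE 0.446). Zbtb16 (ENSMUSG00000066687.5, chromosome 9, 48654297 to 48836222, minus strand), a zinc finger repressor strongly induced by steroids in many cells, was at 28.1, 19.3 and 9.48 against 13.0, 21.3 and 15.9 CPM, a log2 fold change of -0.20 (SE 0.449) that was 0.21 without WT replicate 1. Both varied widely within the genotypes, with coefficients of variation of 40.1% and 49.0% in WT glands against 10.7% and 7.38% from counting error, so these libraries give little precision on their genotype difference.

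Ages differ between the groups, so libraries of the same age were also set side by side. At 6 weeks, Hpn-/- replicates 1 and 2 against WT replicate 2 gave ratios of 2.72 and 3.79 for Ddit4, 2.63 and 3.45 for Depp1, 1.97 and 2.64 for Tsc22d3, 1.83 and 1.83 for Dusp1, 1.56 and 1.78 for Txnip and 1.46 and 1.97 for Sgk1. At 5 weeks, Hpn-/- replicate 3 against WT replicate 3 gave 1.64 for Ddit4, 1.58 for Depp1, 1.46 for Tsc22d3, 2.00 for Dusp1, 1.29 for Txnip and 1.04 for Sgk1. Each age has a single WT library, so the ratios carry no test, and apart from Dusp1 the 5 week ratios of these genes were below both 6 week ratios. Fkbp5 had ratios of 0.672 and 1.71 at 6 weeks and 1.65 at 5 weeks, and Zbtb16 0.671 and 1.10 at 6 weeks and 1.68 at 5 weeks. With the 5 and 6 week libraries alone and age as a covariate, the log2 fold changes were 1.19 for Ddit4, 1.10 for Depp1, 0.92 for Dusp1, 0.91 for Tsc22d3, 0.57 for Txnip and 0.45 for Sgk1. In the same fit Fkbp5 was at 0.44, Zbtb16 at 0.19, Klf9 at 0.08 and Nr3c1 at -0.05.

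**Figure D2:**
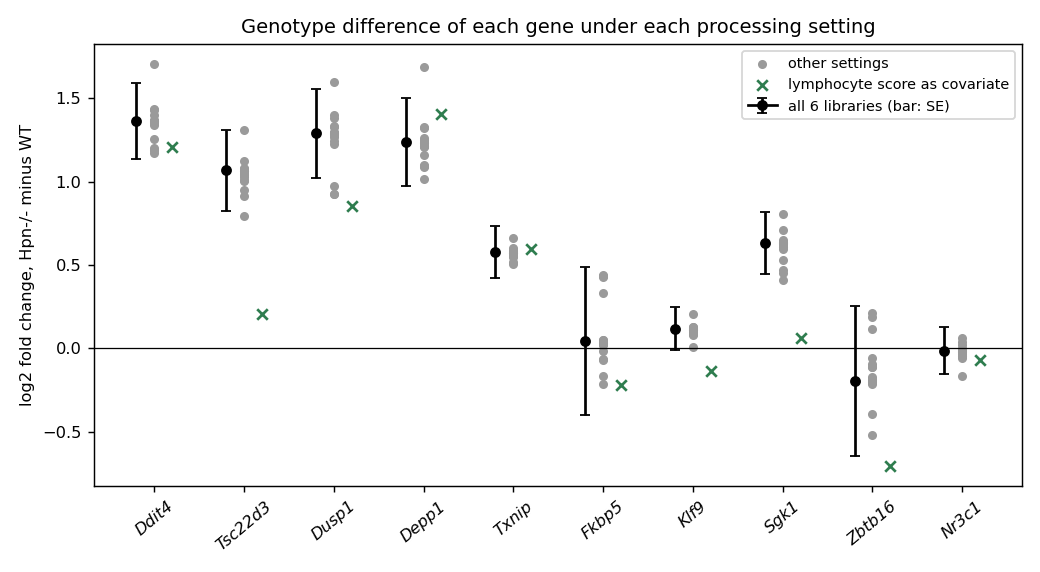
Log2 fold change (Hpn-/- minus WT) of each gene from all 6 libraries with its SE (black), under the other 17 settings (grey) and with a lymphocyte marker score as covariate (green cross). Ddit4 (1.17 to 1.71), Depp1, Dusp1 and Txnip stay above 0.5 in every setting, and Tsc22d3 and Sgk1 come near 0 with the lymphocyte score. Fkbp5, Zbtb16 and Nr3c1 lie on both sides of 0, while Klf9 is below 0 only with the lymphocyte score.

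Lymphocyte markers had higher values in Hpn-/- glands. This held for all 10 markers, all of which were tested (median log2 fold change 0.47). Of these, 7 had an unadjusted p under 0.05 (3.98% of all tested genes on the higher side) and 0 passed after adjustment over all genes in edgeR's test. The library with the highest sum, Hpn-/- replicate 2 (94.99 CPM), was also the highest Hpn-/- library for 9 of the 10 stress genes. Of the Hpn-/- libraries, replicate 2 likewise had the highest sums of mammary epithelial, macrophage, adipocyte and Schwann cell markers. Fibroblast and endothelial marker sums were highest in Hpn-/- replicate 3, and those of skeletal muscle markers in Hpn-/- replicate 1. With the mean lymphocyte score as covariate, which was added once the data had been seen, Tsc22d3 went from 1.07 to 0.20, Sgk1 from 0.63 to 0.06 and Klf9 from 0.12 to -0.14. In the same fit Ddit4 was at 1.21, Depp1 at 1.40, Dusp1 at 0.85 and Txnip at 0.59. For these 4 genes edgeR's unadjusted p in that fit was 0.0147, 0.0205, 0.0610 and 0.0409. It was 0.431, 0.819 and 0.508 for Tsc22d3, Sgk1 and Klf9, and the adjusted p was 0.9996 for all of these genes. Because the genes were chosen for this contrast, these p-values are no test of them. The summed markers themselves split the genotypes by a small gap, 70.2 against 70.3 CPM, so the fit tells score and genotype apart poorly. The part of lymphocytes in these differences was not tested. Of 6 fibroblast markers 5 had lower values in Hpn-/- glands (median -0.25, sums of 1500 to 2024 CPM in WT against 1075 to 1691 CPM), 3 of them at an unadjusted p under 0.05 (2.9% of all tested genes on the lower side) and 0 after adjustment in edgeR. All 5 Schwann cell markers had lower values (median -0.30, sums of 72.8 to 87.9 against 59.6 to 81.1 CPM), 0 of them at an unadjusted p under 0.05 or after adjustment in edgeR. Of 8 mammary epithelial markers 7 had higher values (median 0.26, sums of 30.9 to 38.9 against 30.8 to 48.0 CPM). Of these 8 markers, 0 higher and 1 lower had an unadjusted p under 0.05, and 0 passed after adjustment in edgeR. The sums were 161 to 183 against 142 to 190 CPM for endothelial and 143 to 174 against 152 to 200 CPM for macrophage markers, and the part of these cell types in the values of the stress genes was not tested. Skeletal muscle markers overlapped between the genotypes, and with a muscle score as covariate the 6 genes were at 0.57 to 1.35.

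Within a genotype the 10 genes did not vary as 1 block. The genes were chosen with their genotype difference known, and that choice may also reflect their spread within a genotype. Ddit4, Depp1, Txnip, Sgk1 and Klf9 shared the highest library of each genotype. Of the WT libraries the 5 week replicate 3 was highest (0.56, 0.70, 0.18, 0.15 and 0.04 above the WT mean on the log2 scale). Of the Hpn-/- libraries replicate 2 was highest (0.30, 0.17, 0.11, 0.41 and 0.21). The lowest WT library was replicate 1 for Ddit4, Depp1 and Sgk1 but replicate 2 for Txnip and Klf9. Tsc22d3, Sgk1, Klf9 and Dusp1 were highest of the Hpn-/- libraries in replicate 2 (0.50, 0.41, 0.21 and 0.095 above the mean), though Dusp1 was nearly as high in replicate 1 (0.093). They were lowest in the 5 week replicate 3 (-0.58, -0.39, -0.19 and -0.19), and their WT libraries came in a different order for each. Nr3c1 was also lowest of the Hpn-/- libraries in replicate 3 (-0.15) but highest in replicate 1 (0.25). Fkbp5 and Zbtb16 were highest in the 2 week WT replicate 1 (0.60 and 0.70 above the mean) and lowest of the WT libraries in replicate 3 (-0.42 and -0.86), the reverse of Ddit4 and Depp1. These groupings were seen in the values and were not tested.

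**Figure D3:**
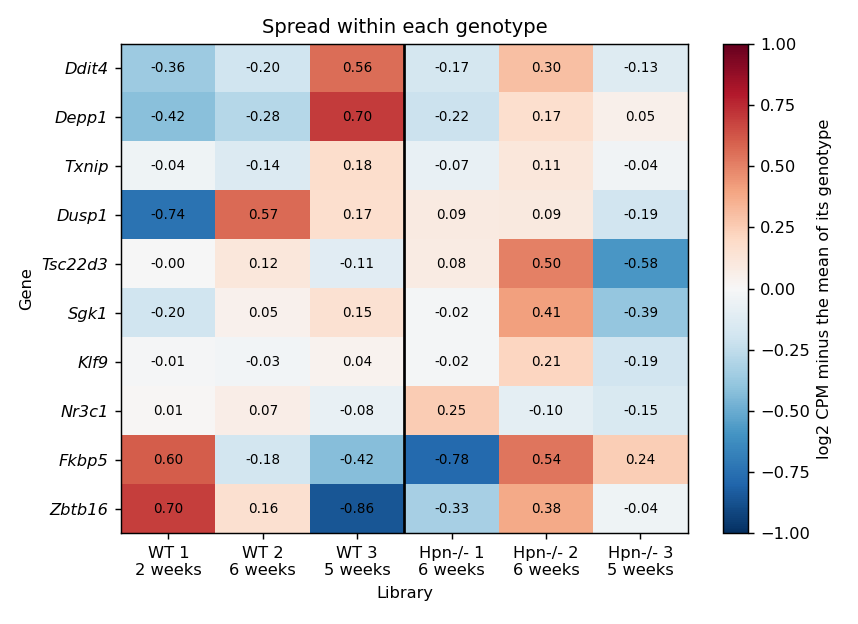
Deviation of log2 CPM from the mean of its own genotype, for each gene (rows) and library (columns, with age in weeks). Red is above and blue below the mean. Ddit4, Depp1, Txnip, Sgk1 and Klf9 are highest in WT replicate 3 and Hpn-/- replicate 2. Tsc22d3, Sgk1, Klf9, Dusp1 and Nr3c1 are lowest of the Hpn-/- libraries in replicate 3. Fkbp5 and Zbtb16 are highest in WT replicate 1, at 0.60 and 0.70.

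The groups overlap for Fkbp5, Zbtb16, Klf9 and Nr3c1, which allowed correlations of log2 CPM over all 6 libraries, and Fkbp5 with Zbtb16 is given in full because their common pattern had been seen. Pearson's r of this pair was 0.79 (exact two-sided permutation p = 0.0639, 0.195 after Benjamini-Hochberg adjustment over the 45 pairs of the 10 genes). Spearman's rho was 0.89 (exact permutation p = 0.0333, adjusted 0.136). Without the 2 libraries farthest from the median of Fkbp5, r was 0.73 over 4 libraries. Neither measure passed the adjustment. Because the pair was picked for its pattern in these values, its p-values are given as descriptions. The libraries permuted also mix genotypes and ages, and the 2 week WT replicate 1 was highest for both genes. The 45 pairs include pairs of genes chosen for their genotype difference, and the small p of such pairs lowers the adjusted values. The other pairs of these genes had r of -0.64 (Fkbp5 with Nr3c1), 0.18 (Fkbp5 with Klf9), 0.10 (Klf9 with Zbtb16), -0.07 (Zbtb16 with Nr3c1) and -0.05 (Klf9 with Nr3c1), with exact permutation p from 0.183 to 0.986 and adjusted p from 0.413 to 0.986.

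By profile over the 6 libraries, the genes most like the mean of the 10 stress genes were Jakmip1, Galnt6, Ppp2r2d, Ror1 and Mlph, with Pearson's r of 0.985 to 0.995 among 11607 other genes compared. Galnt6, for example, was at 6.34, 6.50 and 6.46 CPM in WT replicates 1 to 3, against 8.92, 12.2 and 8.62 CPM in Hpn-/- replicates 1 to 3. By deviations from the genotype means they were Usp18, Sesn1, Naip2, Unc13d and Galnt6, with r of 0.992 to 0.996. Sesn1, an inhibitor of mTORC1 and itself a FOXO target, had WT levels of 7.97, 8.32 and 8.39 CPM, and of the Hpn-/- libraries replicate 2 stood out at 12.0 CPM beside 7.40 in each of the others. With 6 libraries such values of r are reached by the best of many genes, and they are given as a description of likeness.

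Wider lists of glucocorticoid and FOXO targets, also made with results of these data known, put the 10 genes in context. Of 24 tested glucocorticoid receptor targets outside the 10 genes, 18 had higher and 6 lower values in Hpn-/- glands, with a median log2 fold change of 0.17 beside 0.00 over all genes. At an unadjusted p under 0.05 there were 7 higher and 1 lower, against 3.98% and 2.9% of all tested genes. The lower one was Rasd1, named after its values were seen, at a log2 fold change of -0.89 (edgeR adjusted p = 0.481). Its levels were 13.3 ± 1.06 CPM in WT against 7.07 ± 2.84 CPM in Hpn-/- glands (SD, n = 3 each). Of the 24 targets 1 passed after adjustment over all genes. That gene was Errfi1, an inhibitor of the EGF receptor, at a log2 fold change of 1.24 (edgeR adjusted p = 0.0212), whose call in these data was known when the list was made. Without WT replicate 1, WT replicate 2 or Hpn-/- replicate 2 its edgeR adjusted p was 0.111, 0.110 and 0.223, and it was 0.203 with limma-voom and 0.248 with age as covariate over the 6 libraries. Per1, a clock gene directly induced by the receptor, was at 19.7, 12.3 and 14.7 CPM in WT replicates 1 to 3, and its Hpn-/- libraries, at 22.5, 33.5 and 33.3 CPM, all lay above them. Its log2 fold change was 0.92 (SE 0.192, edgeR adjusted p = 0.343). It passed with DESeq2 (adjusted p = 0.0353) and in the 5 and 6 week libraries with age as a covariate (1.17, edgeR adjusted p = 0.0337). Rhob was at 0.52 (edgeR adjusted p = 0.440), and the most abundant member, the lipid droplet gene Plin4, was at 238 ± 34.5 (SD, n = 3) in WT against 227 ± 27.7 CPM (SD, n = 3) in Hpn-/- glands. The median of the list was 0.31 without Hpn-/- replicate 1 and 0.06 without Hpn-/- replicate 2.

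Of 25 tested FOXO targets 16 were above and 9 below 0 (median 0.10 on the log2 scale), and there were 3 higher and 0 lower at an unadjusted p under 0.05 and 0 after adjustment in edgeR. Irs2, the insulin receptor substrate that FOXO factors induce in fasting, was at 14.1, 13.9 and 10.99 CPM in WT replicates 1 to 3 and reached 18.9, 20.998 and 23.3 CPM in those of Hpn-/-. Its log2 fold change was 0.70 (SE 0.141, edgeR adjusted p = 0.264), and 162 bases of its exons overlap an antisense gene. Rbl2, at 0.37, overlaps neighbouring exons on the opposite strand, and so does Pik3ip1, an inhibitor of PI3 kinase that was at 1.01 (0.50 without Hpn-/- replicate 2) with 11.6 CPM in Hpn-/- replicate 2 against 5.22 and 4.43 in the other Hpn-/- libraries. Pck1, the most abundant member, was at 370 ± 64.5 (SD, n = 3) in WT against 373 ± 126 CPM (SD, n = 3) in Hpn-/- glands. Without WT replicate 1 the median was 0.02 and without Hpn-/- replicate 2 it was 0.03.

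**Figure D4:**
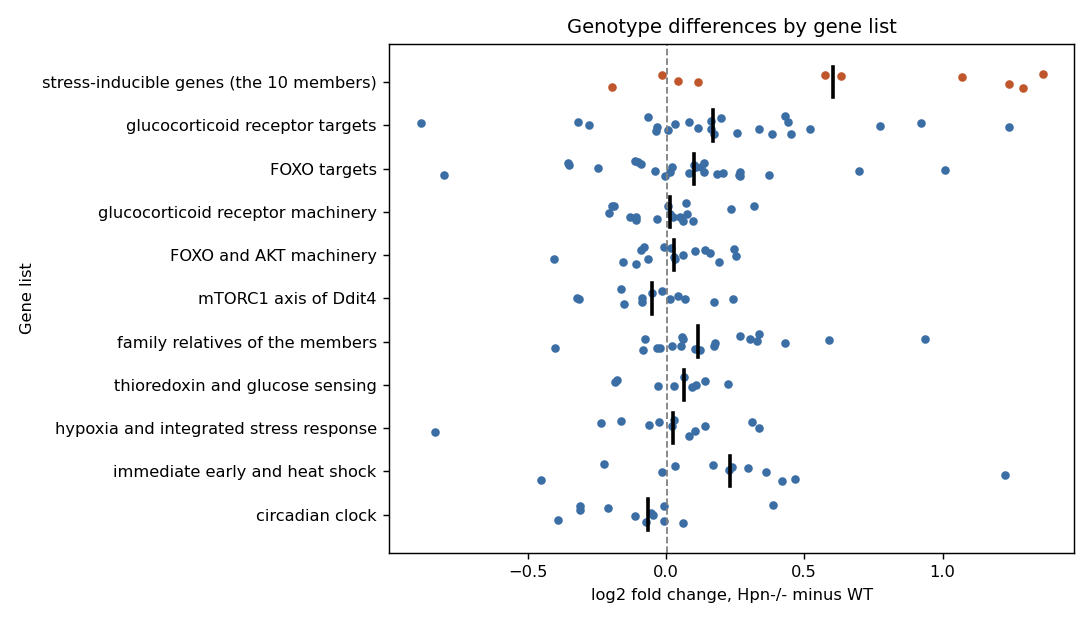
Log2 fold change (Hpn-/- minus WT) of each tested gene by list, with the list median as a black bar and the median of all tested genes as a dashed line. The 10 stress genes (orange) were chosen for this contrast and have a median of 0.60, while the other lists drawn have medians from -0.06 to 0.23. Cell type marker lists are not drawn.

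Genes that carry the signals were taken next. Of 17 tested genes of receptor chaperones, coregulators and hormone conversion 0 passed and 0 had an unadjusted p under 0.05 in edgeR's test (median log2 fold change 0.02). Nrip1, a corepressor, was at 0.23, Hsd11b1, which regenerates active glucocorticoid inside cells, at 0.32 (0.05 without Hpn-/- replicate 1), the co-chaperone gene Fkbp4 at -0.21, and the chaperone gene Hsp90ab1 was the most abundant at 167 ± 5.82 (SD, n = 3) in WT against 155 ± 3.53 CPM (SD, n = 3) in Hpn-/- glands. Of 17 tested FOXO and AKT genes 0 passed, and 1, lower in Hpn-/- glands, had an unadjusted p under 0.05, namely the mTORC2 subunit gene Mapkap1 at -0.41 (edgeR adjusted p = 0.604). Rictor was at 0.25 and Foxo3 at 0.25, the latter at 0.08 without Hpn-/- replicate 2. The mTORC1 axis on which the Ddit4 product acts had 5 genes above and 8 below 0 among 13 tested (median log2 fold change -0.05), 0 of them past the adjusted or the unadjusted threshold in edgeR. Akt1s1 was at -0.32, Deptor at 0.24 (0.01 without Hpn-/- replicate 1) and Tsc1 at 0.17.

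Family relatives of the 10 genes had 15 members above and 5 below 0 among 20 tested (median 0.11 on the log2 scale), with 3 higher and 1 lower at an unadjusted p under 0.05 and 0 after adjustment in edgeR. The phosphatase gene Dusp2, expressed mainly in immune cells, was at 0.93 (1.99, 1.62 and 2.18 CPM against 3.30, 5.68 and 2.51 CPM in replicates 1 to 3 of each genotype), the arrestin gene Arrdc3 at 0.43 and Klf10 at -0.40. Without Hpn-/- replicate 2, Dusp2 was at 0.57 and Arrdc3 at 0.19. Among 9 tested thioredoxin and glucose sensing genes, which include partners and regulators of Txnip, 0 passed either threshold in edgeR (median 0.07), with Txn2 at -0.18, Slc2a4 at 0.22 and Txnrd1 at -0.18. Of 12 tested hypoxia and integrated stress genes, another input of Ddit4, 0 passed after adjustment and 1, lower in Hpn-/- glands, had an unadjusted p under 0.05 in edgeR (median 0.03). That gene was Adm at -0.84, and Pfkfb3 was at 0.31 and Hspa5 at -0.23.

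Markers of handling and of time of day were read beside these values. Of 12 tested immediate early and heat shock genes 9 were above and 3 below 0 (median 0.23 on the log2 scale), and there were 3 higher and 0 lower at an unadjusted p under 0.05 and 0 after adjustment in edgeR. Nr4a1 was at 1.23 (2.62 ± 0.986 against 5.98 ± 1.63 CPM, SD, n = 3), Btg2 at 0.47 and Jun, which overlaps an antisense gene, at 0.30. Of 12 tested clock genes, a list that leaves out Per1 because it is among the glucocorticoid targets (0.92), 2 were above and 10 below 0, with a median of -0.06, and edgeR gave an unadjusted p under 0.05 to 2, both lower, and called 0. Those were Hlf at -0.39 and Per3 at -0.31, and Bhlhe40 was at -0.31. The part of handling or of the hour of collection in the values of the stress genes was not tested.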

How the data were processed

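Per the labels' protocols, ribosomal RNA was removed from total RNA of whole tissue before stranded single-end sequencing. The authors deposited raw read counts per gene for all 6 libraries. Per the submitters' processing notes the tools were bcl2fastq, Trimmomatic, STAR 2.6.0c, featureCounts and DESeq2 with GRCm38, with no settings, annotation or strand use stated. All 55450 identifiers matched GENCODE M21, used for symbols, coordinates and exon lengths. Promoters came from RefSeq (GRCm38.p6).

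Libraries were grouped by genotype in the titles. Identifiers differ between libraries, as do ages within WT, but the labels do not state separate animals, and p-values cover only the spread of these samples. Pairs within a group differed beyond sampling noise (chi-square 6.72 to 32.1 per degree of freedom). Counts were fitted in R 4.3.3 with edgeR 4.0.16 (filterByExpr with minimum count 10 and total 15, TMM, robust quasi-likelihood, Benjamini-Hochberg, called under 0.05), and log2 CPM used a prior count of 2. The code was tested on simulated data. Alternatives used limma 3.58.1, DESeq2 1.42.0, other scalings, filters, covariates and left-out libraries.

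The 10 genes and all lists were chosen with earlier results of these data known. The genes named are the 10, Hpn, of the lists around them the 3 of smallest p and the most abundant, and the 5 most alike by each measure. Gm15441 and Rasd1 were named after their values were seen. Genes of cell type marker lists are not named, and these lists are given as sums, some with counts.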

Additional observations from a re-analysis of the deposited data

Results flagged for a closer look

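Klf9 was picked out because its genotype difference went in opposite directions at the ages that hold libraries of both genotypes. At 5 weeks Hpn-/- replicate 3 was below WT replicate 3 by a log2 difference of -0.12, whereas at 6 weeks Hpn-/- replicates 1 and 2 were above WT replicate 2 by 0.12 and 0.35. The differences of -0.12 and 0.12 are ratios of 0.922 and 1.09. They are near the size of counting error, which was 6.23% per WT and 5.52% per Hpn-/- library. Each age has a single WT library, and the difference between the ages was not tested.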

How the results depend on the processing

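edgeR called 2 higher and 0 lower genes over all genes. The higher count was 76 with no count filter, 8 with DESeq2, 0 with limma-voom, 8 with the replicate block, 0 with an age term over all 6 libraries, 13 with the muscle score and 0 with the lymphocyte score, and it ran from 0 to 89 when single libraries were left out. The lower count was 24 with no filter, 1 with the replicate block, 1 with age in the 5 and 6 week libraries and 5 with the muscle score, and from 0 to 111 when single libraries were left out. The highest values, 89 and 111, came without Hpn-/- replicate 3, and the causes were not tested. Whether the replicate numbers pair the libraries was not settled. Deviations of same-numbered libraries correlated at 0.17, 0.07 and 0.37, and each Hpn-/- library correlated best with the WT library of its number. WT replicate 2, however, correlated best with Hpn-/- replicate 1 (0.13). Of the higher calls, 6 of 76 with no filter (25242 genes tested), 5 of 8 with DESeq2 (25242), 3 of 8 with the replicate block (12520), 3 of 13 with the muscle score (12520), 2 of 4 without WT replicate 3 (Ddit4 and Depp1, 12878) and 3 of 89 without Hpn-/- replicate 3 (Ddit4, Sgk1 and Tsc22d3, 12916) were stress genes, which were chosen for this contrast. The stress genes' median log2 fold change of 0.60 was 0.13 with the lymphocyte score and 0.46 to 0.70 when single libraries were left out. Ddit4, Depp1 and Dusp1 had 37 to 85 counts in WT libraries, a counting error of 13.4% to 14.3% beside observed coefficients of variation of 37.3% to 47.1%.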
